A study of Zea mays with 12 samples.

Results

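In maize (Zea mays), 59 genes were expressed in the developing internode of both genotypes studied and were at or near 0 in the ligular region. They were chosen from 39514 genes by level alone. Each had at least 3 FPKM (read fragments corrected for transcript length and for sequencing depth) in the internode of Sdw3 and of N18, and under 0.3 FPKM in the ligular region of both. Another 5 genes, all of the knotted-type homeobox (knox) family, met the same limits and were left out. Of 17428 genes at 3 FPKM or more in both internode genotypes, the 59 are 0.339%. The mirrored rule, ligular region over internode, took 510 genes.

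The groups were the internode of Sdw3, which the series title calls a maize mutant, and the internode of N18, both taken between leaf 7 and leaf 8, with the ligular region (leaf 8 and leaf 9) from the same genotypes. All plants were at vegetative stage V7, and the 12 libraries were 3 per group. The deposited tables give the authors' combined value per group, so levels stand without an SD, the depth of each library is unknown, and it is not stated whether libraries came from separate plants. A gene is called higher or lower when its adjusted p (q) between Sdw3 and N18 within the internode is under 0.05 in the authors' deposited table.

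An internode is the stem segment between successive leaves, and it lengthens through dividing cells at its base. Shoot meristems and young stems express class I knox genes, homeobox genes that are switched off where leaves begin. The ligular region is the boundary between leaf sheath and blade where the ligule, a fringe of epidermal tissue, forms. Regulators of meristem and stem are textbook examples of genes on in the first tissue and off in the second.

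The labelled tissues were checked by marker genes of leaf and ligule, which the rule did not use. lg1 (GRMZM2G036297), the gene needed to form a ligule, was at 0.183 and 0.125 FPKM in the Sdw3 and N18 internode and at 15.0 and 14.9 FPKM in the Sdw3 and N18 ligular region. The full list of 20 leaf and ligule markers summed to 953 and 1053 FPKM in the Sdw3 and N18 internode, none of them at 0, and to 7059 and 6176 FPKM in the Sdw3 and N18 ligular region. Of the 20, 3 had the higher mean in the internode, the YABBY genes yab14, yab9 and yab10, which were at 1.41 FPKM or less in every group. Among the 12 tested in the internode, 1 was called higher in Sdw3 and 3 lower, where 11.3% of all tested genes were called. The 5 internode markers found by name, lg4 and 4 of the knox genes left out, met the limits of the rule and so check nothing. They summed to 394 and 375 FPKM in the Sdw3 and N18 internode.

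**Figure D1:**
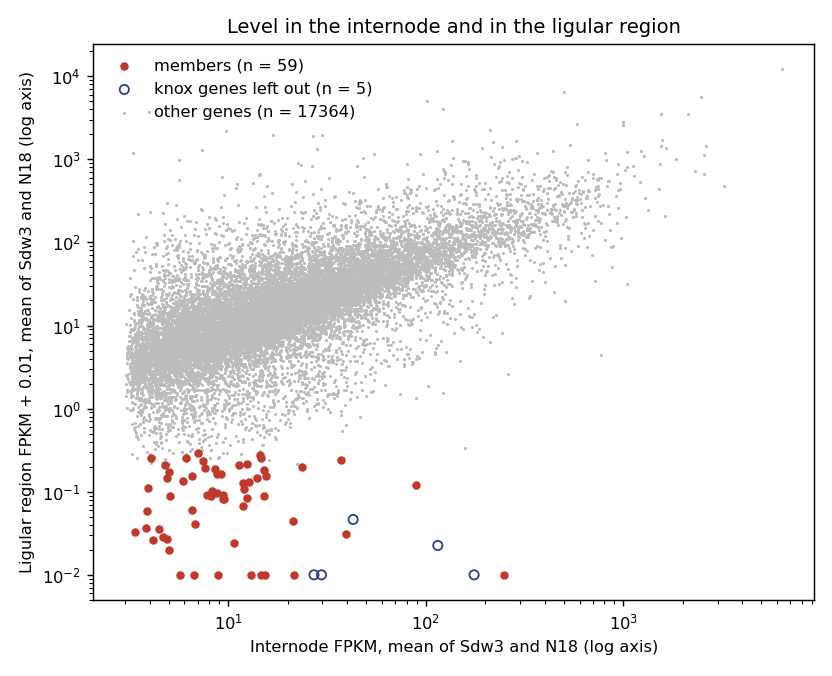
Mean FPKM of Sdw3 and N18 in the internode (horizontal, log axis) and in the ligular region plus 0.01 (vertical, log axis) for every gene at 3 FPKM or more in both internode genotypes. The 59 members (filled red) and the 5 knox genes left out (open blue) lie at the lower edge of the cloud of other genes (grey), with no gap between them, and points at 0.01 are listed at 0 in the ligular region.

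The label of internode-only expression holds within the limits of the rule. In the ligular region 8 members were listed at 0 in both genotypes, 6 at 0 in Sdw3 alone, 9 at 0 in N18 alone, and 36 were above 0 in both. The median ligular level was 0.0985 FPKM in Sdw3 and 0.0579 FPKM in N18, and no member was tested there by the authors. Without counts these values cannot be told from absence. For the 51 members above 0 in at least 1 ligular value, the mean internode level was 16.9 to 1870 times the mean ligular level, with a median of 103 times. These ratios are what the rule used and carry no test.

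The limits were cut through a continuous range. Just inside the internode limit were GRMZM2G139082 (hscf1), at 3.66 FPKM in Sdw3 and 3.08 in N18, GRMZM2G479260 (TIDP2749), at 6.46 and 3.13, and GRMZM2G136567, at 3.44 and 4.27. Just outside it were AC233946.1_FG004, at 2.98 FPKM in the Sdw3 and 3.02 in the N18 internode, GRMZM2G003496, at 2.86 and 3.22, and GRMZM2G022659, at 3.75 and 2.84. Near the ligular limit, GRMZM2G020799 was inside at 0.163 FPKM in Sdw3 and 0.294 in N18, as were GRMZM2G017223 at 0.239 and 0.292 and TIDP2749 at 0.289 and 0.114. GRMZM2G386460 (0.317 in Sdw3 and 0.292 in N18), GRMZM2G107377 (0.323 and 0.0938) and GRMZM2G333042 (0.284 and 0.326) were the nearest ones outside.

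Few of the 59 could be identified by name, and no product descriptions or protein domains were used here. RefSeq's gene table matched 36 of them, 34 as protein-coding genes, 1 as a long non-coding RNA and 1 as a microRNA precursor, and 11 have a name other than a locus number. Of those 11, 6 are transcription factor genes by name, 1 is the microRNA precursor, and 4 (hscf1, TIDP2749, gpm353 and cl912_1) have names that give no role. The remaining 48 are given by their identifiers.

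The transcription factor genes are those of a homeobox, a WUSCHEL-related homeobox, a bZIP, a MADS-box, an SRS and an AP2/EREB family. lg4 (GRMZM2G094241; chromosome 8, 130383323 to 130388890, B73 RefGen_v3), a class I knox gene also named lg4a, was at 25.8 FPKM in the Sdw3 internode and 21.2 in the N18 internode, and at 0.190 and 0.182 FPKM in the Sdw3 and N18 ligular region. It was not called (q = 0.101 in the authors' deposited table). lg4b (GRMZM5G832409), by its name the second copy of this gene, was outside the set, with 15.4 FPKM in the Sdw3 and 14.9 in the N18 internode and 0.498 and 0.388 in the Sdw3 and N18 ligular region; how reads that fit both copies were divided is not given in the sources used here. Over the 10 knox genes found by name, 1 was called higher and 1 lower in Sdw3, and the median log2 ratio was 0.03. Of all tested internode genes 6.54% were called higher and 4.76% lower. Not all 10 met the ligular limit: knox6 was at 14.8 and 15.3 FPKM in the Sdw3 and N18 ligular region, and knox7 at 8.74 and 8.87. There knox8 was at 0.636 FPKM in Sdw3 and 2.78 in N18, and lg4b, given above, was also over the limit.

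FEA4 (GRMZM2G133331; chromosome 6, 116934690 to 116937455), the bZIP gene of the fasciated ear4 locus that limits meristem size in maize, was at 13.9 FPKM in the Sdw3 internode and 10.8 in the N18 internode. It was not called, with q = 0.172 in the authors' deposited table. The level of wox4 (GRMZM6G260565; chromosome 10, 144893352 to 144894218) was 5.85 FPKM in Sdw3 and 6.01 in N18, with q = 0.946 in the authors' deposited table. In Arabidopsis its WOX4 namesake acts in the cambium, the dividing layer of vascular tissue. lg4, FEA4 and wox4 passed the level rule and were not called, where 11.3% of all tested internode genes were called. The authors' deposited table gives an unadjusted p of 0.0156 for lg4 and 0.0352 for FEA4, both higher in Sdw3. For wox4 it gives 0.868.

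SRS7 (GRMZM2G135783; chromosome 7, 142938485 to 142940360), by its name of the SHI-RELATED SEQUENCE family whose Arabidopsis members activate auxin synthesis genes, was called higher. Its level was 17.1 FPKM in the Sdw3 internode against 10.8 FPKM in the N18 internode, 1.58-fold higher (q = 0.00109 in the authors' deposited table). MADS34 (GRMZM2G137510; chromosome 10, 17785901 to 17791457), a MADS-box transcription factor gene, was called lower at 4.25 FPKM in Sdw3 against 26.1 FPKM in N18, 6.14-fold lower with the same q in the authors' deposited table. EREB161 (GRMZM2G021573; chromosome 9, 145136034 to 145140341), of the ethylene-response-factor superfamily by name, was at 5.31 FPKM in Sdw3 and 4.46 in N18 and not called (q = 0.422 in the authors' deposited table). So 1 of the 6 transcription factor genes was called higher, 1 lower and 4 were not called, where 6.54% of all tested genes were called higher and 4.76% lower.

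The microRNA precursor MIR319d (chromosome 8, 26772859 to 26773070) belongs to the miR319 family, which in Arabidopsis cuts transcripts of TCP growth regulators. Its locus was at 29.6 FPKM in the Sdw3 internode and 13.5 FPKM in the N18 internode and listed at 0 in the ligular region of both. Though 2.19-fold apart, these values were not called (q = 0.587 in the authors' deposited table). The value is that of the precursor locus, 212 bp long, and says nothing of the mature microRNA.

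Most members were expressed at a modest level. The median was 9.22 FPKM in the Sdw3 and 7.78 FPKM in the N18 internode, below the medians of 16.7 and 16.9 FPKM in Sdw3 and N18 over all genes at 3 FPKM or more. Only 7 of the 59 had a mean of at least 20 FPKM. The set summed to 1019 FPKM in Sdw3 and 849 FPKM in N18, or 0.133% and 0.116% of the Sdw3 and N18 internode totals.

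A single gene stood far above the rest. GRMZM2G147241 (chromosome 2, 29859581 to 29861470), a protein-coding gene without a name, reached 283 FPKM in the Sdw3 internode and 215 FPKM in the N18 internode while listed at 0 in the ligular region of both. It made up 27.8% of the summed level of the 59 in Sdw3 and 25.3% in N18. It was called higher, 1.32-fold (q = 0.00201 in the authors' deposited table).

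The next most abundant was GRMZM2G061499 (chromosome 10, 130721054 to 130722834), at 108 FPKM in Sdw3 and 71.2 FPKM in N18, called 1.51-fold higher. GRMZM2G023557 was at 43.7 FPKM in Sdw3 and 35.7 in N18 and not called, with q = 0.107 in the authors' deposited table. GRMZM2G020799 was at 31.2 FPKM in Sdw3 against 43.2 in N18 and called 1.38-fold lower. After lg4 and MIR319d, the 10 most abundant were completed by 4 unnamed genes. Of these GRMZM2G122172 (24.0 FPKM in Sdw3, 18.3 in N18), GRMZM2G040517 (17.9 and 13.0) and GRMZM2G108798 (22.6 and 7.89) were called higher. GRMZM2G160327 (13.7 and 17.3) was not called.

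**Figure D2:**
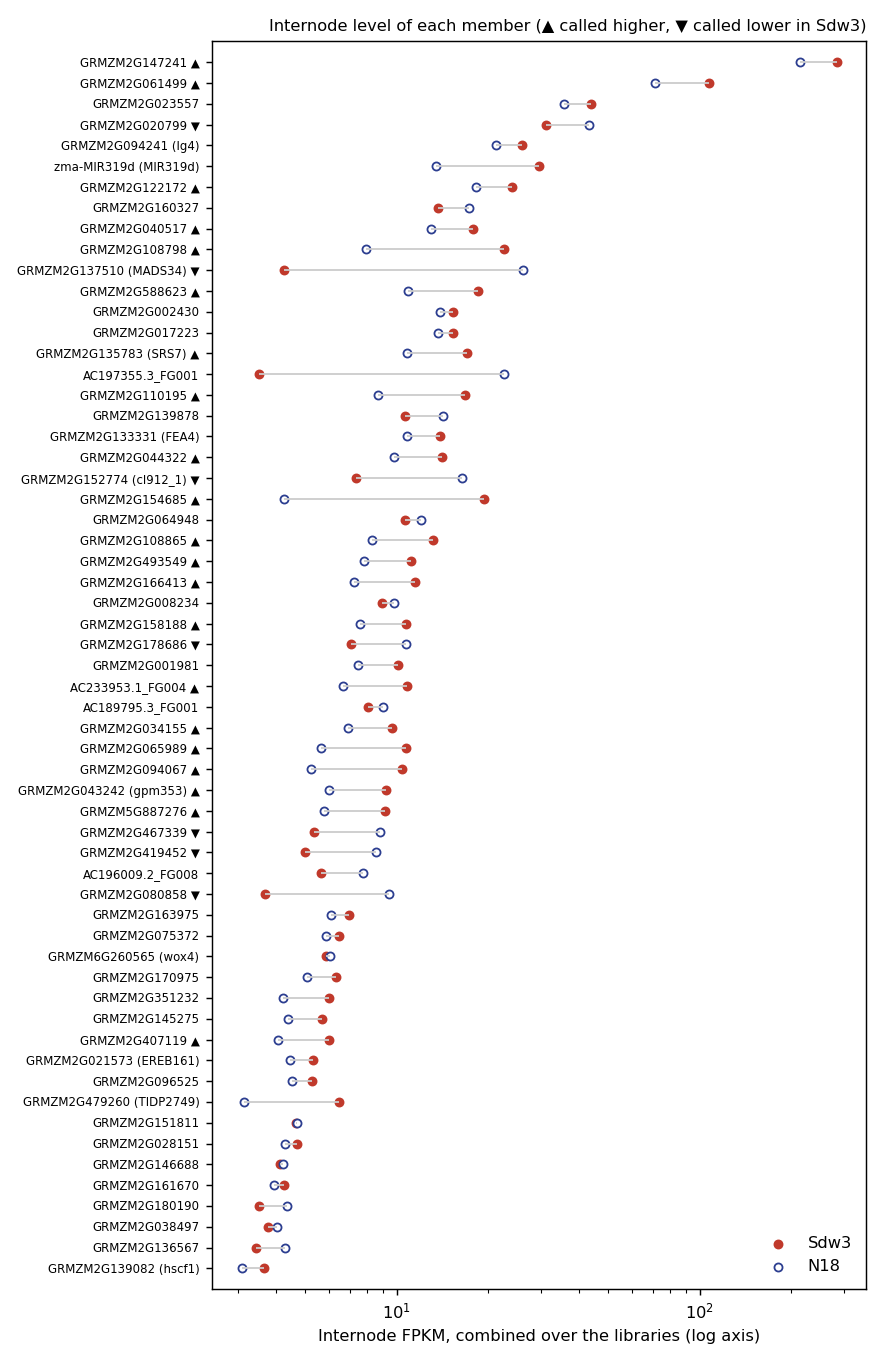
Combined internode FPKM of each of the 59 members in Sdw3 (filled red) and N18 (open blue) on a log axis, ordered by mean level, with an upward mark for genes called higher and a downward mark for genes called lower in Sdw3. GRMZM2G147241 and GRMZM2G061499 stand above all others, and 39 of the 59 have the Sdw3 point on the right of the N18 point.

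The design compares Sdw3 with N18, and for the 59 this can be done in the internode. Many were called, and mostly as higher in Sdw3. The authors tested 58 of them and 28 (48.3%) were called, 21 as higher and 7 as lower in Sdw3; the other 30 did not pass. Over all 21131 internode genes tested 11.3% were called, 6.54% as higher and 4.76% as lower. Among the 17424 tested genes that reached 3 FPKM in both genotypes, a rule that leaves out genes near 0 in either, the share called was 10.8%, with 5.96% higher and 4.82% lower. In the set 36.2% were higher and 12.1% lower. The members were chosen by their levels in these same libraries and are no replicates of each other, so the shares are a description without a test.

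Direction leaned the same way across called and uncalled genes. Sdw3 was above N18 for 39 of the 59 members (66.1%), and for 43.1% of all genes at 3 FPKM or more. The median log2 ratio was 0.28 in the set, a ratio of 1.22, and -0.04 over all such genes, a ratio of 0.976. The middle of the set ran from a log2 ratio of -0.15 at the lower quartile to 0.58 at the upper, against -0.16 and 0.11 for all such genes. Uncalled members were less lopsided, with Sdw3 above N18 in 18 of 30, and for 7 of those 30 the authors' deposited table has an unadjusted p under 0.05.

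These figures depend on where the limits are set. With at least 2 FPKM in the internode and under 0.5 in the ligular region, 172 genes qualified, 28.7% of those tested were called (33 higher and 16 lower), and the median log2 ratio was 0.00377. With at least 5 FPKM and under 0.1, 14 genes qualified, 10 of the 13 tested were called (9 higher and 1 lower), and the median was 0.49. The share called was above 11.3% under all 3 sets of limits, while the lean of the median towards Sdw3 was absent under the widest.

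**Figure D3:**
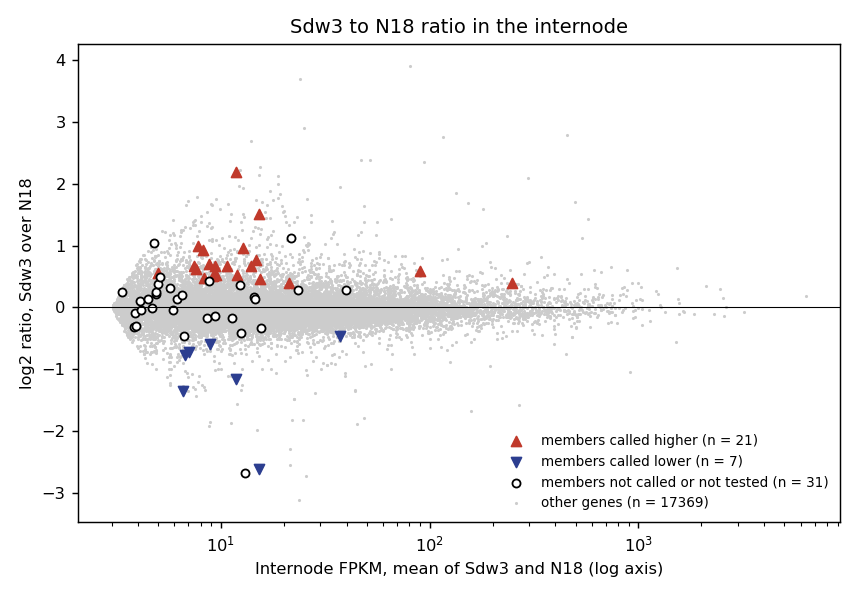
Log2 ratio of Sdw3 over N18 in the internode (vertical) against mean internode FPKM (horizontal, log axis) for genes at 3 FPKM or more in both genotypes. Members called higher (21, upward triangles), called lower (7, downward triangles) and not called or not tested (31, open circles) are drawn over all other genes (grey); the members called higher lie mostly between log2 ratios of 0.4 and 1.

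The share called exceeded that of all genes of like level in 3 of 4 ranges. Sorted by mean internode level, 0 of 11 members between 3 and 5 FPKM were called, against 6.42% of all genes there. Between 5 and 10 FPKM 14 of 23 were called (60.9%), against 11.1% of all genes. From 10 to 20 FPKM 10 of 17 (58.8%) were called, against 11.1%, and at 20 FPKM and over 4 of 7 (57.1%), against 11.3%. In each of these 3 upper ranges more members were called higher than lower, and so were more of all genes. Between 5 and 10 FPKM 43.5% of members were called higher and 17.4% lower, against 6.24% and 4.9% of all genes. From 10 to 20 FPKM the shares were 47.1% and 11.8%, against 6.18% and 4.92%. At 20 FPKM and over they were 42.9% and 14.3%, against 6.12% and 5.16%.

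**Figure D4:**
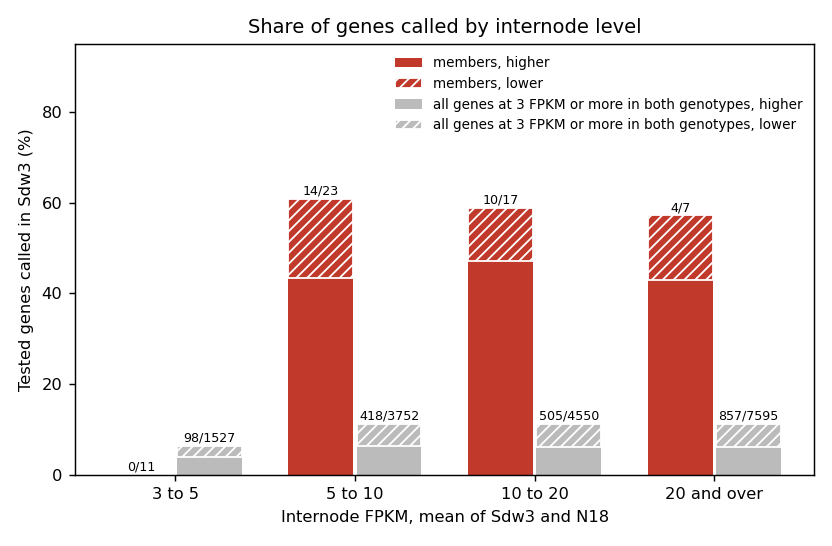
Percentage of tested genes called higher (solid) and lower (hatched) in the Sdw3 internode, for members (red) and for all genes at 3 FPKM or more in both genotypes (grey), in 4 ranges of mean internode FPKM; numbers above bars are genes called over genes tested. No member under 5 FPKM was called, and above it 57.1% to 60.9% were, against 11.1% to 11.3% of all genes.

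Most changes were small. Called increases ran from 1.31-fold to 4.55-fold with a median of 1.58-fold, and called decreases from 1.38-fold to 6.14-fold with a median of 1.70-fold. At 1.5-fold or more 13 members were called higher and 6 lower (32.8% of those tested), where 3.95% of all tested genes at 3 FPKM or more were, 2.78% higher and 1.18% lower. At 2-fold or more 2 were higher and 3 lower (8.62%), against 1.04% of those genes, 0.763% higher and 0.281% lower. The lowest q that the authors' deposited table of the internode holds, 0.00109, is shared by 970 genes, among them 12 of the members called higher and 4 of those called lower. Members named below as called have that value unless another is given.

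The largest increase was that of GRMZM2G154685 (chromosome 2, 93503688 to 93507160), at 19.4 FPKM in Sdw3 against 4.26 FPKM in N18, 4.55-fold. GRMZM2G108798 (chromosome 6, 85368896 to 85371594) followed, at 22.6 against 7.89 FPKM, 2.86-fold. Neither has a name in the table used, and both were low in the ligular region, at 0.0450 and 0.0699 FPKM in Sdw3 and N18 for GRMZM2G154685 and 0.137 and 0.0224 FPKM for GRMZM2G108798.

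Another 3 members were 1.9-fold higher or more. GRMZM2G094067 (chromosome 5, 172963066 to 172964225) was at 10.4 FPKM in Sdw3 against 5.22 in N18, and GRMZM2G110195 (chromosome 3, 171478325 to 171481809) at 16.8 against 8.67. GRMZM2G065989 was at 10.7 FPKM in Sdw3 against 5.63 in N18, with q = 0.00581 in the authors' deposited table. A second gene is listed at the same locus, GRMZM5G805389, and how reads were assigned between them is not given in the sources used here, so these values are uncertain.

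Besides SRS7 and GRMZM2G061499, 6 members were between 1.5-fold and 1.9-fold higher. GRMZM2G588623 was at 18.6 FPKM in Sdw3 against 10.9 in N18 (q = 0.00903 in the authors' deposited table), AC233953.1_FG004 at 10.8 against 6.65, and GRMZM2G108865 at 13.2 against 8.28. GRMZM5G887276 (9.15 against 5.75), GRMZM2G166413 (11.5 against 7.24) and gpm353 (GRMZM2G043242; 9.22 against 5.97) complete them. All 6 had Sdw3 levels under 20 FPKM.

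The 8 smallest increases, under 1.5-fold, included the abundant GRMZM2G147241 and, at 1.31-fold, GRMZM2G122172 (q = 0.0129 in the authors' deposited table). GRMZM2G044322 was at 14.2 FPKM in Sdw3 against 9.81 in N18. By the authors' deposited table, q was 0.00286 for GRMZM2G034155 (9.63 against 6.90 FPKM), 0.0102 for GRMZM2G407119 (5.99 against 4.05) and 0.0145 for GRMZM2G158188 (10.7 against 7.54). It was 0.016 for GRMZM2G493549 (11.2 against 7.78 FPKM) and 0.018 for GRMZM2G040517 (17.9 against 13.0), also by the authors' deposited table. The last of these is the highest q among the members called higher.

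Among the 7 members called lower, MADS34 changed most. GRMZM2G080858 (chromosome 8, 134162543 to 134164094) was at 3.68 FPKM in Sdw3 against 9.43 in N18, 2.56-fold lower, and cl912_1 (GRMZM2G152774; chromosome 3, 212049140 to 212050240) at 7.35 against 16.4, 2.23-fold lower. GRMZM2G419452 was at 4.9998 against 8.52 FPKM (q = 0.0107 in the authors' deposited table), GRMZM2G467339 at 5.35 against 8.79, and the long non-coding RNA gene GRMZM2G178686 at 7.09 against 10.7 (q = 0.0145 in the authors' deposited table). GRMZM2G020799, given above, has q = 0.0077 in the authors' deposited table. Of 32 MADS-box genes found by name 9 were tested in the internode, 1 of them called higher and 3 lower, against 6.54% higher and 4.76% lower over all tested genes, and only MADS34 belonged to the set.

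The 2 widest ratios without a call were at short loci, those of AC197355.3_FG001 and MIR319d. AC197355.3_FG001, a locus of 207 bp, was at 3.50 FPKM in Sdw3 and 22.6 in N18, a wider gap than that of MADS34, yet q was 0.424 in the authors' deposited table. AC196009.2_FG008, of 204 bp, was at 5.63 FPKM in Sdw3 and 7.75 in N18 and was not tested. With MIR319d these are the 3 members whose locus is under 300 bp, and without them the counts remained 21 higher and 7 lower. TIDP2749 was 2.06-fold higher without being called, at 6.46 against 3.13 FPKM (q = 0.338 in the authors' deposited table), and shares its locus with another gene.

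The last named member, hscf1, was not called. It was at 3.66 FPKM in Sdw3 and 3.08 in N18, with q = 0.445 in the authors' deposited table. The remaining uncalled genes are unnamed and had ratios of Sdw3 to N18 between those of GRMZM2G139878, at 10.7 FPKM in Sdw3 and 14.3 in N18, and GRMZM2G351232, at 5.96 and 4.23.

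Marker genes of other tissues were mostly low in the internode. Markers of axillary buds and young ears summed to 4.39 FPKM in the Sdw3 and 3.21 FPKM in the N18 internode over 5 genes found. Most of this came from gt1, at 3.16 FPKM in Sdw3 and 1.75 in N18, and zfl1, at 1.09 and 1.25. They were the 2 tested, and neither was called. Of the others, ra1 was at 0 and ra3 and BA1 were under 0.2 FPKM. Floral organ markers summed to 3.61 and 1.905 FPKM in the Sdw3 and N18 internode over 5 genes, and the 1 tested, zmm16, was called higher in Sdw3. For nodal roots 2 markers were found, which summed to 21.8 FPKM in the Sdw3 and 23.9 FPKM in the N18 internode, nearly all of it rth3. In the ligular region rth3 was also present, at 22.8 FPKM in Sdw3 and 38.8 in N18. The other marker, rtcs, was at 1.02 and 0.941 FPKM in the Sdw3 and N18 internode and listed at 0 in the ligular region. Leaf and ligule markers were, as given above, lower in sum in Sdw3 and internode markers higher in sum. In a bulk sample a change in the share of a cell type and a change of RNA per cell cannot be told apart, and the part of these markers in the result was not tested.

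In the genome the 59 were spread over all 10 chromosomes, from 2 on chromosome 4 to 9 on chromosome 8. Chromosome 8 held 15.3% of members and 9.22% of all genes at 3 FPKM or more, and chromosome 4 held 3.39% and 10.01%. No member had another member as its immediate neighbour. Each member had a flanking gene on each side, 118 in all, with GRMZM2G429301, which flanks both GRMZM2G407119 and EREB161, counted for each. Of these 118, 69 (58.5%) averaged at least 1 FPKM in both tissues, against 56.3% for genes flanking all those at 3 FPKM or more. In the internode alone 9 (7.63%) did so, against 3.203%.

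Some members lay close to a knox gene or to each other. GRMZM2G146688 (chromosome 2, 237250179 to 237253121), at 4.11 FPKM in Sdw3 and 4.21 in N18, was the immediate neighbour of the knox gene gnarley1, 45.0 kb away. On chromosome 9, GRMZM2G407119 and EREB161 were 68.5 kb apart with 1 gene between them. On chromosome 10, AC189795.3_FG001 (8.06 FPKM in Sdw3 and 9.03 in N18), GRMZM2G002430 (15.3 and 13.9) and wox4 followed each other at distances of 323 kb and 206 kb, and none of the 3 was called. The called member GRMZM2G110195 was the neighbour of zmm16, which was also called higher, at 2.85 FPKM in Sdw3 against 1.46 in N18, but was present in the ligular region at 4.42 and 6.08 FPKM in Sdw3 and N18. GRMZM2G061499, also called higher, had a gene called higher on each side. Of all flanking genes 79 were tested and 10 called, where 11.3% of all tested internode genes were called.

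The loci of the members had a median span of 1892 bp against 4041 bp over all genes at 3 FPKM or more. Locus span counts introns, so it is not transcript length. Of the 59, 3 overlapped another gene of the files (GRMZM2G065989, GRMZM2G163975 and TIDP2749).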

How the data were processed

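RNA of 12 maize libraries was sequenced, 3 for each of 4 combinations of tissue and genotype. The submitters' processing notes name TopHat2 2.1.0, Cufflinks, CASAVA 1.8 and bcl2fastq, with B73 RefGen_v3 as the genome; annotation release and Cufflinks version were not given in the sources used here. The deposited table of each tissue holds 1 FPKM per gene and genotype, combined by the authors over the libraries. No header names this unit; it is inferred from Cufflinks and the column layout. The p-value and adjusted p (q-value) are the authors', per the file headers; a Benjamini-Hochberg adjustment over the tested genes differed from the deposited values by at most 5.26e-07.

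The members and the gene lists were chosen with earlier results of these data known. Ratios were computed here without a pseudocount. Members are named with values where they were called, were among the 10 highest, had a name, or lay nearest a threshold. Names came from RefSeq's table of a later assembly, Zm-B73-REFERENCE-NAM-5.0, whose coordinates were not used. Starts in the files were taken as counted from 0 and printed plus 1: of 291 short predicted models, 93.8% then had a length divisible by 3. Fits per library (limma, replicate block, leaving out a replicate) were planned only if the files held a value per library, and none does. The membership and call rules were tested on simulated data. Alternatives were other thresholds, pseudocounts, centring, and leaving out shared or short loci. Python 3.11.15, numpy 2.4.6, pandas 2.3.3 and matplotlib 3.10.9 were used.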

Additional observations from a re-analysis of the deposited data

How the results depend on the processing

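No paired analysis was possible because the files hold 1 combined value per genotype and tissue; leaving out each replicate was not run for the same reason. The number of members was 172 under the looser limits (2 and 0.5 FPKM), 14 under the stricter (5 and 0.1 FPKM) and 70 with the internode limit set on N18 alone. Called members numbered 49 (33 higher, 16 lower) under the looser and 10 (9 higher, 1 lower) under the stricter limits. Asking for 1.5-fold left 13 called higher. The counts of calls stayed within 1.5 times of the values reported with a stricter adjusted p, without shared loci and without short loci. The median log2 ratio of 0.28 was 0.27 on the log2(FPKM + 1) scale, 0.32 when centred on all genes at 3 FPKM or more, 0.00377 under the looser limits, 0.49 under the stricter, 0.27 without genes that share a locus and 0.29 without loci under 300 bp, an alternative chosen after seeing the data. Of 118 ratios of single members recomputed with a pseudocount of 1 or with centring, 116 kept their direction; centring turned GRMZM2G151811 to 0.0226 and GRMZM2G146688 to 0.000436, both uncalled. Depth per library is unknown, so ligular levels under 0.3 FPKM cannot be told from absence.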

Other observations

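CCD8 and CCD7 are carotenoid cleavage dioxygenase genes of the synthesis of strigolactone, a hormone that holds back shoot branching, and neither was a member. CCD8 (GRMZM2G446858), which only the looser limits took in, was at 7.14 FPKM in the Sdw3 internode and 7.25 in the N18 internode, against 0.140 and 0.461 FPKM in the Sdw3 and N18 ligular region, and it was not called. CCD7 (GRMZM2G158657), which acts one step before it, missed the internode limit in N18, also the looser one. It was at 3.30 FPKM in Sdw3 against 1.36 FPKM in N18 and called higher (q = 0.00109 in the authors' deposited table), with 0.0236 and 0.0365 FPKM in the Sdw3 and N18 ligular region. Both were chosen after their values were seen, and no list of the pathway was tested.

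The looser limits took in 12 named genes that the set lacks. Of these 1 was called, where 11.3% of all tested internode genes were called. The called gene was AW400087 (GRMZM2G084821), at 4.74 FPKM in the Sdw3 internode against 2.44 FPKM in the N18 internode, 1.94-fold higher (q = 0.0261 in the authors' deposited table). Among the 11 not called, besides CCD8 and lg4b, were the bZIP gene DLF1 (GRMZM2G067921), known for promoting the floral transition in maize, at 16.0 FPKM in the Sdw3 and 13.9 in the N18 internode, the tubulin gene TUB8 (GRMZM2G472945), at 15.0 and 14.1, and wox5B (GRMZM2G116063), at 2.57 and 2.91. The other 6 uncalled genes were GLK23, pco138005, umc1449, ANAC044, PPCK3 and obf3.2, with ratios of Sdw3 to N18 between 0.953 (umc1449) and 1.34 (pco138005). In 21 genes, AW400087 and CCD7 among them, the internode limit was met in Sdw3 alone with the ligular limit met in both genotypes, and in 11 genes in N18 alone. Of those that met it in Sdw3 alone, 14 of 18 tested were called higher, and of those that met it in N18 alone, 6 of 10 were called lower, a direction that the way they were chosen fixes.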
